A study of Homo sapiens with 6 samples.

Results

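The transcripts of the HLA class I heavy chain genes HLA-B, HLA-C, HLA-E and HLA-F and of B2M, the gene for their common light chain beta-2 microglobulin, were followed in 92.1 cells, an established human ocular melanoma line. RNA was sequenced from 3 libraries of cells with ALKBH3 knocked down (shALKBH3, sh being the common prefix of a short hairpin RNA) and from 3 libraries of the line labelled NC with a wild-type genotype. The labels do not say whether NC cells carry a control hairpin, how many hairpins or clones stand behind the knockdown, or whether a group's libraries stem from separate cultures. The p-values therefore measure the spread between these libraries only, which may be technical. The 5 genes were taken by name from the 11387 genes to which listed transcripts could be assigned, and all 5 were listed and passed the filter of at least 1 FPKM on average (sequenced fragments relative to transcript length and library size) that left 10475 genes for testing. FPKM of a gene is the sum over its listed transcripts, and sequencing depth is unknown.

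Class I molecules carry peptides from proteins made inside the cell to its surface, where CD8 T cells read them. A polymorphic heavy chain folds in the endoplasmic reticulum with beta-2 microglobulin and a peptide that the TAP transporter has delivered, and without beta-2 microglobulin most heavy chains do not reach the surface. HLA-B and HLA-C are classical presenting molecules, HLA-E mainly shows leader peptides of other class I chains to natural killer cells, and HLA-F is a non-classical relative with a restricted surface display. Interferons induce these genes through IRF factors and the coactivator NLRC5, and melanomas are known to lose class I display through changes in B2M or the heavy chains.

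The interferon-linked elements of this gene group can be read in the reference promoters. RefSeq promoters were found for 4 of the 5 genes, HLA-B, HLA-C, HLA-F and B2M. The 250 bases before each gene's start are given 5′ to 3′ on the gene's strand (GRCh38.p14), with capitals for matches to the interferon-stimulated response element (ISRE) and to the kappa B motif of NF-kB.
HLA-B (chr6:31357180-31357429, minus strand): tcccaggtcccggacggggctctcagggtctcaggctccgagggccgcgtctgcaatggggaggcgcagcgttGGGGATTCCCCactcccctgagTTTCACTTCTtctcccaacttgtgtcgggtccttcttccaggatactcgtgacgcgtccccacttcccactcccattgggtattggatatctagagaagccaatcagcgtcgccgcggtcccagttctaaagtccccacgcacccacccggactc
HLA-C (chr6:31272093-31272342, minus strand): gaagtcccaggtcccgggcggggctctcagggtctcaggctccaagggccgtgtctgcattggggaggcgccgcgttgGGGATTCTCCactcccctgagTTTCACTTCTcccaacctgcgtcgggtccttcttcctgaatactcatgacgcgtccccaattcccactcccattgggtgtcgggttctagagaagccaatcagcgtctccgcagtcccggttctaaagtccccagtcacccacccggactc
HLA-F (chr6:29723184-29723433, plus strand): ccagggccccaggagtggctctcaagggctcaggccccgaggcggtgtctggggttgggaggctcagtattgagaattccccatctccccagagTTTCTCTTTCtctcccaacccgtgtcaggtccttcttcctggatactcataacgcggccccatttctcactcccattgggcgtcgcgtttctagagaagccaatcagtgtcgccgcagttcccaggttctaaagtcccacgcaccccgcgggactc
B2M (chr15:44711267-44711516, plus strand): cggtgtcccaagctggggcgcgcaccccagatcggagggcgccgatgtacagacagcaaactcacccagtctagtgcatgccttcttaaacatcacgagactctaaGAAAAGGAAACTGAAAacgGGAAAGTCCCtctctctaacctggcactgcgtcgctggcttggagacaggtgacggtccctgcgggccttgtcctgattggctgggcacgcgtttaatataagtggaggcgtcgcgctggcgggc

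The ISRE was searched on both strands as GAAA or AGAA followed by any 2 bases (NN) and then GAAA, letters chosen after these promoters had been read, and 1 or both forms occur in 5.27% of 35116 reference promoters of that length. HLA-B and HLA-C hold the same match, AGAAGTGAAA on the opposite strand, HLA-F holds GAAAGAGAAA on the opposite strand, and B2M holds GAAAAGGAAA and GAAACTGAAA, which overlap each other. The kappa B motif, found in 5.21% of promoters, matched in HLA-B at 2 overlapping positions, in HLA-C and in B2M, and these letters were not found in the HLA-F window. A CCAAT box occurred in all 4, against 32.0% of all promoters, and the cyclic AMP response core TGACG in HLA-B, HLA-C and B2M, against 21.2%. These are reference sequences, and the alleles of the 92.1 line were not analysed here.

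None of the 5 genes passed the test between shALKBH3 and NC, against 1.76% of all tested genes, 1.28% that were higher and 0.477% that were lower. The test was limma on log2(FPKM + 1), with Benjamini-Hochberg adjustment over the 10475 genes, a threshold of 0.05, and differences taken as shALKBH3 minus NC. At an unadjusted p under 0.05 the count among the 5 was also 0, where 8.98% of all tested genes were higher and 8.15% lower. The difference was positive in 4 of the 5, as it was in 48.7% of all tested genes, and negative in B2M, where it turned positive with libraries scaled to equal sums, without NC replicate 1 and without shALKBH3 replicate 3. The groups overlapped in each of the 5, whereas 24.9% of tested genes were separated without overlap. In bulk RNA, fewer expressing cells and less RNA per cell cannot be told apart.

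HLA-B was measured at 129.9, 95.8 and 117 FPKM in shALKBH3 replicates 1, 2 and 3, against 94.7, 94.9 and 99.4 FPKM in NC replicates 1, 2 and 3. The NC libraries lay close together, shALKBH3 replicates 1 and 3 stood above them, and shALKBH3 replicate 2 lay within their range. The means were 114 ± 17.2 FPKM in shALKBH3 and 96.3 ± 2.65 FPKM in NC (SD, 3 libraries each). The log2 difference was 0.23 (SE 0.119, 95% interval -0.06 to 0.52, limma adjusted p = 0.37). After a correction of each library for transcript length and GC content it was 0.42 and passed (limma adjusted p = 0.049), within a range of adjusted p from 0.049 to 0.60 over 18 alternatives.

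HLA-C, the second classical chain here, was measured at 25.2, 15.5 and 16.9 FPKM in shALKBH3 replicates 1, 2 and 3, against 12.7, 17.1 and 18.0 FPKM in NC replicates 1, 2 and 3. Apart from shALKBH3 replicate 1, the knockdown libraries lay inside the NC range. The log2 difference was 0.24 (SE 0.214, 95% interval -0.27 to 0.76, limma adjusted p = 0.58), and 0.04 without shALKBH3 replicate 1.

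Among the non-classical chains, HLA-E was at 82.6, 67.2 and 73.3 FPKM in shALKBH3 replicates 1, 2 and 3, against 65.8, 61.9 and 70.9 FPKM in NC replicates 1, 2 and 3. Replicates 1 and 3 of shALKBH3 were above every NC library and replicate 2 was not. Its log2 difference was 0.16 (SE 0.101, 95% interval -0.08 to 0.41, limma adjusted p = 0.45).

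HLA-F was the lowest of the 5, at 4.24, 3.50 and 1.29 FPKM in shALKBH3 replicates 1, 2 and 3, against 1.40, 1.68 and 2.14 FPKM in NC replicates 1, 2 and 3. The knockdown libraries held both the highest values and the lowest. Its log2 difference of 0.47 had the widest interval of the 5 genes, -0.31 to 1.26 (SE 0.325, limma adjusted p = 0.49), and it was 0.84 without shALKBH3 replicate 3 and 0.24 without shALKBH3 replicate 1. On the log2(FPKM + 1) scale the change of a gene at this level is understated.

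B2M was measured at 124, 95.9 and 89.8 FPKM in shALKBH3 replicates 1, 2 and 3, against 119.7, 111 and 92.4 FPKM in NC replicates 1, 2 and 3. Both groups covered nearly the same span. The means were 103 ± 18.3 FPKM in shALKBH3 and 108 ± 14.0 FPKM in NC (SD, 3 libraries each). The log2 difference was -0.07 (SE 0.155, 95% interval -0.44 to 0.31, limma adjusted p = 0.84), and its sign turned when libraries were scaled to equal sums (0.0263).

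**Figure D1:**
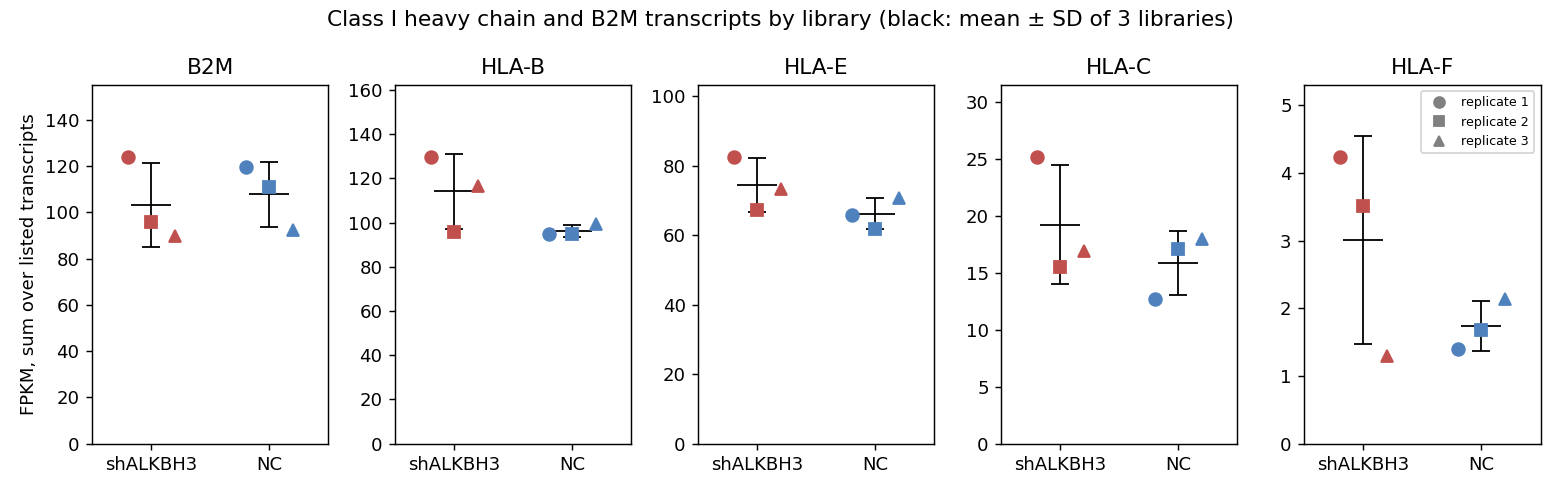
FPKM of B2M, HLA-B, HLA-E, HLA-C and HLA-F (y axes, each from 0 with its own scale) in the 3 shALKBH3 libraries and the 3 NC libraries, with 1 point a library and the mean ± SD in black. The groups overlap in all 5 panels, and shALKBH3 replicate 1 (circle) is the highest library of each gene.

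In all 5 genes the highest of the 6 libraries was shALKBH3 replicate 1. That library was the highest for 14.0% of all tested genes. Beside this, it was also the highest for 5 of the 9 tested peptide loading genes, 2 of the 5 tested genes of the immunoproteasome and its activator, 2 of the 14 regulators, 3 of the 7 class I-like genes and 3 of the 15 turnover and trafficking genes. Without it, the log2 differences were 0.13 for HLA-B, 0.04 for HLA-C, 0.09 for HLA-E, 0.24 for HLA-F and -0.21 for B2M, and limma adjusted p-values lay between 0.44 and 0.91. Listed FPKM summed to between 326875 and 333987 in shALKBH3 libraries and between 340950 and 361268 in NC libraries, and values were not rescaled for this. ALKBH3 itself was at 3.29, 3.60 and 4.24 FPKM in shALKBH3 replicates 1, 2 and 3, against 10.5, 10.6 and 9.19 FPKM in NC replicates 1, 2 and 3.

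The order of the levels, which FPKM gives per length of transcript, was the same from HLA-E downwards in every library. B2M and HLA-B held the top, and their ranges overlapped in both groups. HLA-E lay below both, from 67.2 to 82.6 FPKM in shALKBH3 and from 61.9 to 70.9 FPKM in NC, without overlap with either. HLA-C and then HLA-F followed, again without overlap with the next gene above. The ratio of B2M to HLA-B was 0.955, 1.00 and 0.770 in shALKBH3 replicates 1, 2 and 3, against 1.26, 1.17 and 0.930 in NC replicates 1, 2 and 3. The mean log2 ratio differed by -0.30 between the groups, and the ranges overlapped (exact two-sided permutation p = 0.3, where 3 against 3 libraries cannot go below 0.1).

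Single transcripts showed how these sums were made. HLA-B rested on HLA-B-249, which made up between 94.0% and 96.2% of the gene sum in each library, and B2M on B2M-204, with between 92.9% and 95.4%. HLA-E and HLA-F had 1 listed transcript each, of 3 and 15 annotated in GENCODE release 29. HLA-C was divided in another way. HLA-C-201 was at 22.1, 8.05 and 5.47 FPKM in shALKBH3 replicates 1, 2 and 3, against 4.51, 3.45 and 5.57 FPKM in NC replicates 1, 2 and 3. HLA-C-203, which is close to it in length (1554 against 1536 nucleotides), was listed at 0 in shALKBH3 replicate 1 and at 5.46 and 4.19 FPKM in replicates 2 and 3, against 4.30, 10.7 and 9.44 FPKM in NC replicates 1, 2 and 3. The library with the most HLA-C-201 had HLA-C-203 listed at 0, and the share of the gene ran from 20.2% to 87.7% for HLA-C-201 and from 0% to 62.9% for HLA-C-203. How firmly reads can be assigned to 1 or the other of these HLA-C transcripts was not tested, so their shares are uncertain. Neither passed the transcript test (log2 differences of 1.02 and -1.42, limma adjusted p = 0.56 and 0.61). Without shALKBH3 replicate 1 these differences were 0.49 and -0.58, and with 1 library left out they ran from 0.49 to 1.41 for HLA-C-201 and from -1.93 to -0.58 for HLA-C-203. HLA-C-201 had the higher mean in shALKBH3 (11.9 against 3.22 FPKM) and HLA-C-203 in NC (8.16 against 4.51 FPKM). Over all 6 libraries HLA-C-201 was the most abundant HLA-C transcript, but without shALKBH3 replicate 1 HLA-C-203 was. The fit on the most abundant transcript thus took for HLA-C a transcript selected through a knockdown library, so its positive sign there is not independent of that selection. Of the 11 member transcripts tested, 0 passed, where 0.472% of all 19698 tested transcripts did.

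**Figure D2:**
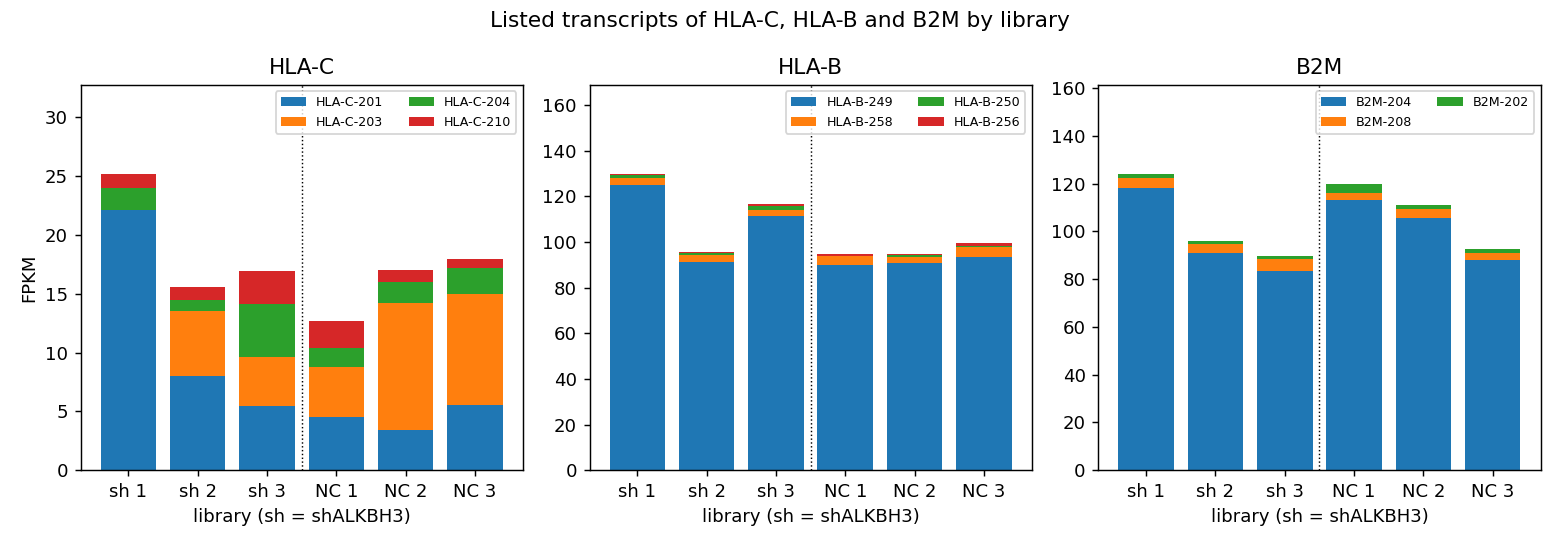
FPKM of each listed transcript of HLA-C, HLA-B and B2M (stacked bars, y axes from 0) in the shALKBH3 and NC libraries. HLA-B and B2M consist mostly of 1 transcript in each library, while HLA-C-201 makes up 87.7% of HLA-C in shALKBH3 replicate 1 and between 20.2% and 51.8% in the other 5 libraries.

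Sequence likeness limits how firmly the heavy chains can be told apart. Coding sequences of the main listed transcripts were 91.5% identical between HLA-B and HLA-C and 80.5% between HLA-E and HLA-F, the most and the least alike of the 6 pairs. Of all 50-base windows of these transcripts, 2.54% in HLA-B-249, 6.79% in HLA-C-201, 5.13% in HLA-E-201 and 1.94% in HLA-F-217 also occur in a transcript of another gene, against 0% in B2M-204. HLA-F overlaps the antisense gene HLA-F-AS1, and an HLA-B annotation in GENCODE release 29 spans HLA-C on the same strand. The library kit marks strand, but whether the counting used it is not given in the sources used here, so the heavy chain values are uncertain in this respect, and the part of the line's own alleles was not tested.

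Of the genes that load peptide onto class I molecules, TAP1 and ERAP1 rose in the knockdown. TAP1, a subunit of the peptide transporter, was at 23.6, 17.8 and 19.8 FPKM in shALKBH3 replicates 1, 2 and 3, against 11.8, 10.0 and 10.3 FPKM in NC replicates 1, 2 and 3, and rose by 0.86 on the log2 scale (limma adjusted p = 0.037). ERAP1, the aminopeptidase that trims peptides in the endoplasmic reticulum, was at 14.7, 15.5 and 15.0 FPKM in shALKBH3 replicates 1, 2 and 3, against 9.69, 9.80 and 7.98 FPKM in NC replicates 1, 2 and 3, and rose by 0.67 (limma adjusted p = 0.041). TAP2, the partner of TAP1, had a log2 difference of 0.49 without passing (limma adjusted p = 0.10). Of the 9 tested peptide loading genes 2 rose and 0 fell, while 7 did not pass, and of all tested genes 1.28% rose and 0.477% fell. The difference was positive in all 9, as in 48.7% of all tested genes. At an unadjusted limma p under 0.05, 7 of the 9 were higher, against 8.98% of all tested genes. The groups did not overlap in 7 of the 9, against 24.9%. The list was chosen with earlier results of these data known. The list had a median log2 difference of 0.42, against 0.23 for the 5 class I genes and -0.01 for all tested genes. Without any 1 of the 6 libraries neither TAP1 nor ERAP1 passed, with limma adjusted p-values from 0.074 to 0.14 for TAP1 and from 0.075 to 0.16 for ERAP1, while the log2 differences ran from 0.76 to 0.95 for TAP1 and from 0.58 to 0.72 for ERAP1. In the fit on each gene's most abundant transcript, neither passed (limma adjusted p = 0.064 for TAP1 and 0.12 for ERAP1). TAP1 has 1 listed transcript, so its values and its log2 difference of 0.86 were the same in that fit. Its adjusted p moved only through the values of other genes. ERAP1, with 3 listed transcripts, gave 0.58 there, and it did not pass without a variance trend (limma adjusted p = 0.052).

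None of the 5 tested genes of the immunoproteasome and its PA28 activator passed, against 1.76% of all tested genes. PSMB9, an inducible catalytic subunit, was at 37.0, 27.7 and 32.0 FPKM in shALKBH3 replicates 1, 2 and 3, against 17.8, 18.6 and 21.3 FPKM in NC replicates 1, 2 and 3. The groups did not overlap, and its log2 difference of 0.71 did not pass (limma adjusted p = 0.065). It passed with libraries scaled to equal sums (0.039), with the length and GC correction (0.0030) and with array weights (0.020). PSMB8 had a log2 difference of 0.35 and PSMB10 of -0.18 (limma adjusted p = 0.30 and 0.72).

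Among 14 tested regulators of class I transcription 1 rose and 0 fell, where 1.28% of all tested genes rose and 0.477% fell. IRF2, an interferon regulatory factor that binds the ISRE, was at 22.2, 24.7 and 24.6 FPKM in shALKBH3 replicates 1, 2 and 3, against 15.8, 15.03 and 14.4 FPKM in NC replicates 1, 2 and 3, and rose by 0.63 on the log2 scale (limma adjusted p = 0.028). Without any 1 of the 6 libraries it did not pass, with limma adjusted p-values from 0.059 to 0.14 and log2 differences from 0.60 to 0.67. CREB1, which binds the cyclic AMP response element, had a log2 difference of 0.61, and STAT2, a transcription factor of interferon signalling, one of 0.38, neither of which passed (limma adjusted p = 0.17 and 0.20). NLRC5, the class I coactivator, was added to the named genes after its values had been seen, and was at 3.53, 3.95 and 3.82 FPKM in shALKBH3 replicates 1, 2 and 3, against 2.64, 3.40 and 3.61 FPKM in NC replicates 1, 2 and 3. Those groups overlapped, with a log2 difference of 0.18 (limma adjusted p = 0.50).

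**Figure D3:**
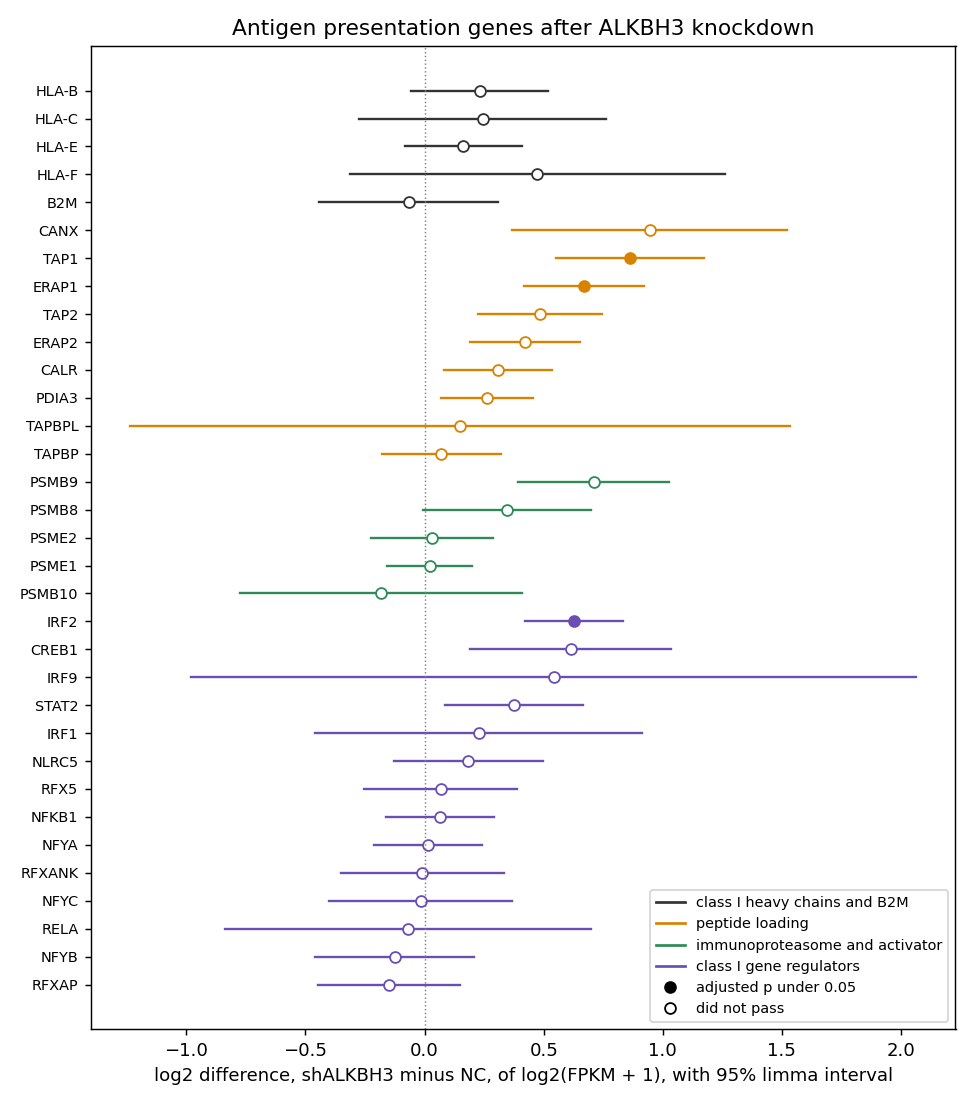
Log2 differences of shALKBH3 minus NC with 95% limma intervals (x axis) for the 5 class I genes, the peptide loading genes, the immunoproteasome and activator genes and the class I regulators (rows). Filled points passed at an adjusted p under 0.05, which TAP1, ERAP1 and IRF2 did, and the intervals of all 5 class I genes cross 0.

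Whether the class I genes rose less than TAP1, or fell, was tested within libraries, by taking each gene's log2 value minus that of TAP1 in the same library. The change of HLA-B minus that of TAP1 was -0.63 log2 units (limma adjusted p = 0.0045), and the same quantity was -0.62 for HLA-C (0.023), -0.70 for HLA-E (0.0033) and -0.93 for B2M (0.0013). HLA-F, with -0.39, did not pass (95% interval -1.07 to 0.30, limma adjusted p = 0.25). Of all tested genes, 84.3% rose less than TAP1 or fell by the same test, so 4 of 5 lies near that background. TAP1 was chosen for its rise in these libraries, which largely set this outcome in advance.

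**Figure D4:**
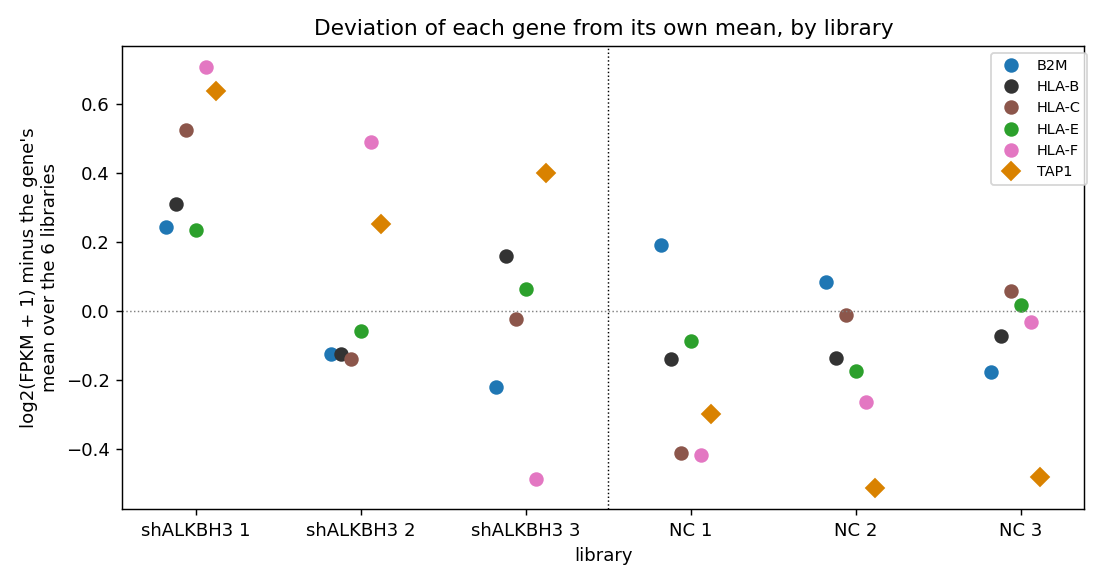
Log2(FPKM + 1) of the 5 class I genes (circles) and TAP1 (diamonds) minus each gene's mean over the 6 libraries (y axis), by library (x axis). TAP1 is above 0 in each shALKBH3 library and below 0 in each NC library, while the class I genes lie on both sides of 0 in shALKBH3 replicate 3.

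Genes were also ranked by likeness of pattern, as the Euclidean distance between log2 values centred on each gene's mean over the 6 libraries, and the 3 nearest are given as a description. Nearest to HLA-B were VRK2 (distance 0.104), COL4A2 (0.120) and GTF2IRD1 (0.123). Those nearest to HLA-E were BRD3OS (0.0427), ARMC7 (0.0857) and PLBD2 (0.1001), and those nearest to B2M were DAZAP2 (0.127), EEPD1 (0.151) and MSRA (0.154). HLA-C lay nearest to NOL6 (0.157), NEU1 (0.202) and CSF1 (0.233), and HLA-F to DNAJC10 (0.430), MOB4 (0.438) and ITGA5 (0.454). None of these 15 genes passed the test between the groups, against 1.76% of all tested genes. They were selected for values like those of members that did not pass, so this follows from the selection. No interferon regulator or peptide loading gene of the lists was among them. Those lists hold 14 and 9 of the 10475 tested genes, so their absence carries no weight.

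No gene passed in the lists of class I-like genes and of class I turnover, where 1.76% of all tested genes did. Of 19 class I-like and other class I genes 8 were listed and 7 tested, and 0 passed. ULBP2, a ligand of the natural killer receptor NKG2D, had a log2 difference of 0.46, the iron regulator HFE 0.69 and ULBP3, another NKG2D ligand, 0.39 (limma adjusted p = 0.22, 0.35 and 0.48). Of 15 genes for the folding, turnover and trafficking of class I chains 0 passed. In lists of 7 and 15 tested genes, 0 lies near the share of all tested genes. CALR, a chaperone of the loading complex that stands in 2 of the lists, had a log2 difference of 0.31, SEL1L, a subunit of a ubiquitin ligase complex for misfolded proteins, 0.43 and the intramembrane protease gene SPPL3 -0.46 (limma adjusted p = 0.19, 0.21 and 0.35).

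Marker lists were compared with the label of the line, and they do not establish its identity, since most melanocyte markers were not listed. Of 8 melanocyte markers MITF and GPR143 were listed, summing to between 21.8 and 25.7 FPKM in shALKBH3 and between 17.7 and 21.2 FPKM in NC, and neither passed. PMEL, MLANA, TYR, TYRP1, DCT and SOX10 were not among the listed transcripts. Of 7 leukocyte markers CD68 alone was listed, a lysosomal protein gene, at 33.8, 37.4 and 37.1 FPKM in shALKBH3 replicates 1, 2 and 3, against 14.7, 15.4 and 18.9 FPKM in NC replicates 1, 2 and 3 (log2 1.10, limma adjusted p = 0.010, and from 0.051 to 0.071 without NC replicate 1 or shALKBH3 replicate 2 or 3). PTPRC, CD3E, CD14, LYZ, ITGAM and HLA-DRA were not among the listed transcripts, and neither were the 4 fibroblast markers. Of 4 epithelial markers KRT19 was listed, with at most 0.658 FPKM in shALKBH3 and 1.15 FPKM in NC. The part of other cells in the class I values was not tested.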

How the data were processed

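RNA of 92.1 cells was fragmented, random-primed and made into strand-marked dUTP libraries, per the labels' protocols. The authors deposited FPKM for each of 28900 transcripts in 6 libraries, per the file headers. The submitters' processing notes name hg19, HTSeq 0.6.0 and DESeq2 without their roles, and neither aligner nor annotation nor FPKM tool is given in the sources used here. In every listed transcript the higher group mean is at least 0.5 FPKM. FPKM hold no read counts, so no counting interval is given.

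Identifiers without suffix and version were matched to GENCODE release 29 (28796 matched, 104 left out), whose transcript lengths and names may differ from the authors' annotation, and FPKM were summed per gene. Genes averaging at least 1 FPKM were tested with limma 3.58.1 in R 4.3.3 on log2(FPKM + 1), with a variance trend, two-sided, without a replicate block. Promoters are RefSeq's, and sequences were compared with Biopython 1.88 in Python 3.11.15. Members and lists were chosen with earlier results of these data known. Named genes are the 5 members, ALKBH3, each list's members past the threshold, filled up to 3 by smallest p, and the nearest patterns. CANX and other list members appear in a plot only. Some genes of these lists are not reported here. Alternatives were other pseudocounts (0.1 and 0.5), filters (none, or a mean of 5 FPKM), scalings, weights, the main transcript and left-out libraries.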

Additional observations from a re-analysis of the deposited data

How the results depend on the processing

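Over all alternatives run, which were 18 for B2M, HLA-B, HLA-C and HLA-E and 17 for HLA-F (it has no value with a minimum mean of 5 FPKM), only HLA-B with the length and GC correction passed (log2 0.42, limma adjusted p = 0.049), and the cause was not tested. The log2 differences of HLA-B, HLA-C, HLA-E and HLA-F were positive in each of them. With 1 library left out they ran from 0.13 to 0.35 for HLA-B, from 0.04 to 0.37 for HLA-C, from 0.09 to 0.23 for HLA-E and from 0.24 to 0.84 for HLA-F. B2M ran from -0.21 to 0.0255 (0.0123 without NC replicate 1 and 0.0255 without shALKBH3 replicate 3), turned to 0.0263 with equal sums, and was -0.23 with array weights (limma adjusted p = 0.32) and -0.0231 with the length and GC correction. Other values over 1.5 times from those reported were 0.45 for HLA-C with that correction, 0.26 for HLA-E with equal sums and 0.26 for HLA-F with array weights. B2M was -0.0272 with quantile normalization. HLA-C-201, main transcript only through shALKBH3 replicate 1, gave 1.02 for HLA-C. With 1 library left out, transcripts ran from -0.22 to 0.0278 for B2M-204, from -0.25 to 0.49 for HLA-C-204 and from -0.10 to 0.44 for HLA-C-210, turning without shALKBH3 replicate 3 in all 3, without NC replicate 1 in B2M-204 and without NC replicate 3 in HLA-C-210.

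Genes higher numbered 134 in all, 80 with the most abundant transcript, 320 with array weights and from 39 to 87 with 1 library left out. Genes lower numbered 50, and 24 with equal sums, 25 with the most abundant transcript, 27 with no variance trend, 160 with array weights and from 9 to 22 with 1 library left out. With the length and GC correction, under which HLA-B passed, 190 genes were higher and 61 lower. Peptide loading genes higher, 2 in all, numbered 0 with the most abundant transcript, 1 with no variance trend, 5 with array weights and 0 with any 1 library left out. Regulators higher, 1 in all, numbered 0 with any 1 library left out. Immunoproteasome genes higher, 0 in all, numbered 1 with equal sums, 2 with the length and GC correction and 1 with array weights, and turnover genes higher 1 with that correction.

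The labels do not say whether the shared replicate numbers pair the libraries. Deviations from the group means correlated between same-numbered libraries at -0.0877, 0.0754 and -0.0116. With 3 libraries a group these correlations over all tested genes cannot settle whether libraries are paired. With a replicate block 17 genes were higher and 3 lower, of peptide loading genes 0 and of regulators 0, and the 5 class I genes did not pass (limma adjusted p from 0.41 to 0.74), nor did TAP1 (0.098), ERAP1 (0.17) and IRF2 (0.17). ALKBH3 missed the threshold with the block (0.098), with its most abundant transcript (0.064) and without NC replicate 1 (0.051). CD68 missed it with the block (0.071), without NC replicate 1 (0.051) and without shALKBH3 replicates 2 and 3 (0.063 and 0.071).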

Other observations

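HLA-DMA, which encodes a chain of the peptide exchange factor of class II molecules, was listed below the level tested. It was at 1.503, 1.03 and 1.22 FPKM in shALKBH3 replicates 1, 2 and 3, against 0.566, 0.220 and 0.262 FPKM in NC replicates 1, 2 and 3. Every knockdown library lay above every NC library, where 24.9% of tested genes were separated in either direction. The NC mean of HLA-DMA was below 0.5 FPKM, the level that the higher group mean reaches in every listed transcript. HLA-DMA was therefore listed through its knockdown mean alone, so neither its separation nor its test is independent of that selection. When genes were tested without a filter on low values its log2 difference was 0.74 (SE 0.156), and it did not pass (limma adjusted p = 0.095 over 11387 genes). CD74, the invariant chain of class II molecules, was the other listed gene among the 13 of the class II list, at 0.306, 0 and 0.518 FPKM in shALKBH3 replicates 1, 2 and 3, against 1.38, 0 and 0.682 FPKM in NC replicates 1, 2 and 3.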
